A study of Mus musculus with 3 samples.

Results

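*Muc4* encodes a large mucin, and 142 of the 11544 single-base substitutions that the authors listed from the genomic DNA of 3 haploid mouse ESC lines are assigned to it. They were chosen by gene name, a single reference base and a single alternate base, with 1 entry per position. A position is in the table because the authors' caller found an alternate base in at least 1 line, so the sites were selected on the same reads that are described here, and the presence of alternate bases at them is no finding. The parental line was O48 (WT, passage 40), an androgenetic haploid ESC line of C57BL/6 background, which carries only a paternal genome and lacks the *H19* and *IG* DMRs. ΔDSM-O48-1 (passage 60) carries mutations in *Dmpk*, *Six5* and *Mbnl1*, and ΔDSMD-O48-2 (passage 70) was derived from ΔDSM-O48-1 by mutating *Dmwd* as well. All 3 lines share the missing DMRs and the culture in 2i and Lif, each edited line grew from a single-cell clone, and the passages differ between the lines. There was 1 library per line, so no spread between cultures could be measured, and passage, cloning and genotype cannot be told apart.

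MUC4 is a membrane-bound mucin of epithelia. Its central part is built of tandem repeats rich in serine and threonine, the residues to which O-linked glycans are attached in mucins, and its membrane-near part has EGF-like domains and is known as a partner of the receptor ERBB2. Genotypes called heterozygous in these haploid cells stand for sites where some reads had the reference base and others the alternate base. Short reads from a tandem repeat can match more than 1 repeat copy, and whether a read came from the copy it was assigned to was not tested here.

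In the mouse genome build GRCm38.p6 (mm10) *Muc4* lies on the plus strand of chromosome 16, from 32735886 to 32782391. All 142 sites are in exon 2, whose coding part runs from 32750197 to 32757124 and is 6928 bases long, while the other coding exons together hold 3489 coding bases and 0 listed sites. The authors' list is one of exonic substitutions, so the introns of the gene are not described here. The first site was T32751825C and the last was T32755892A (reference base, position on chromosome 16, alternate base), so the sites span 4068 bases. The reference base was that of the genome at 142 of 142 sites. Neighbouring sites were 7 bases apart in the median, 88 of 141 neighbours were within 10 bases, and the widest interval was 717 bases. Sites at most 100 bases from the next form 9 groups, and the largest of these hold 40 sites (32752220 to 32752665) and 39 sites (32753764 to 32754071).

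The sequences below carry the main observations. The RefSeq coding sequence of *Muc4* leaves out 2 pairs of genomic bases inside exon 2, which are in capitals in the first 2 lines. The next lines show a cluster at which all reads of all lines had the alternate bases, and a stretch with alternate reads counted only in ΔDSM-O48-1. The last lines show a stretch with alternate reads counted in both edited lines and not in O48. Capitals mark the substituted bases, all sequences are on the plus strand, 5′ to 3′, and the lines with alternate bases are the reference with these bases exchanged.
chr16:32753381-32753410: tcaccttcatcccaGAacatgtcaacagtg
chr16:32754149-32754178: accacctcacatgcTCcctcatgagcagct
chr16:32755676-32755705, reference: CTccaagtTcaacaCacatgttaTccaCaG
chr16:32755676-32755705, alternate: GAccaagtAcaacaAacatgttaAccaGaA
chr16:32754857-32754886, reference: cTagtttccaaagaacaatctctCctggCg
chr16:32754857-32754886, alternate: cAagtttccaaagaacaatctctTctggTg
chr16:32754951-32754980, reference: aacagcatcctcTactCaaattacctcagt
chr16:32754951-32754980, alternate: aacagcatcctcCactGaaattacctcagt

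Exon 2 is repetitive over most of its length. Shifted against itself, it had the highest share of identical bases (52.1%) at an offset of 372 bases, which is 124 codons, followed by 744 bases (45.2%) and 378 bases (43.0%). With 30 bases on each side and at least 80% identical flanks counted as a repeat copy, without gaps, 83.5% of the bases of exon 2 had another copy. All 142 sites had one, with a median of 14 copies and at most 15.

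To see whether an alternate base is also the reference base of another repeat copy, it was put into the reference window of its site and looked for in the genome. Of the 142 windows of 31 bases, 72 were found once on chromosome 16 with the reference base and 70 more than once. With the alternate base in the middle, 27 of 142 windows were found, all of them inside *Muc4*, and 0 were found on other chromosomes or on patches and unplaced sequences. With 1 of the other 2 non-reference bases, 3 of 284 windows were found. With the looser rule of 80% identical flanks, the alternate base was the middle base of another copy at 87 of 142 sites (61.3%), against 47 of 284 for the other non-reference bases. The nearest such copy was 372 bases away at 41 of the 87 sites, and the median distance was 378 bases. Listed sites also fell at the same place of different copies. There were 66 such pairs, involving 96 of 142 sites, and 46 of the 66 pairs had the same reference and alternate base. These counts depend on the length of the window, as 8 sites passed with 25 bases on each side and 37 with 10.

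**Figure D1:**
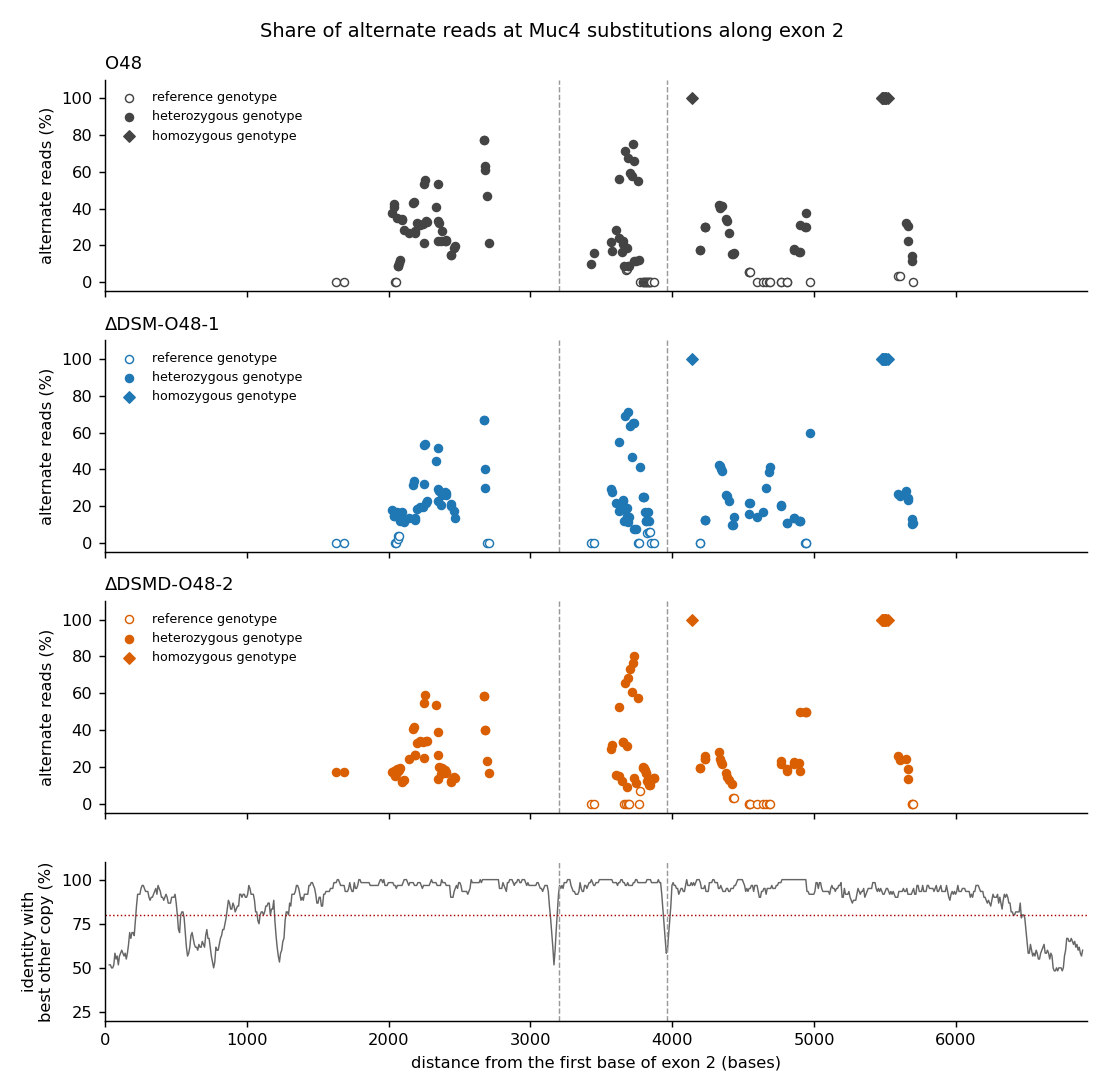
Share of alternate reads (%) at each *Muc4* site in O48, ΔDSM-O48-1 and ΔDSMD-O48-2 (upper panels) and identity (%) of each base's 30-base flanks with the best other copy in exon 2 (lower panel), against the distance in bases from the first base of exon 2. Open circles are reference genotypes, filled circles heterozygous and diamonds homozygous ones, sites under 10 reads are drawn too, dashed lines mark the 2 pairs of bases left out by RefSeq and the dotted line is 80% identity. The 9 homozygous sites are at 100% in all lines, and the other sites lie at 80% or lower.

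The lines carried most sites as mixtures. A line was counted as a carrier of a site when its genotype was heterozygous or homozygous alternate at 10 reads or more. O48 carried 104 sites, ΔDSM-O48-1 115 and ΔDSMD-O48-2 117. This order rests on the rule, since 74, 65 and 61 sites were counted in the same order of lines when an alternate share of at least 0.2 stood in place of the genotype. In each line 9 of these were homozygous, which leaves 95, 106 and 108 heterozygous sites, or 91.3%, 92.2% and 92.3% of the carried ones. At the other sites of the table, 55.0%, 54.9% and 54.8% of the carried substitutions were heterozygous. A high share was not particular to *Muc4*. In O48, 185 of 185 carried sites of *Heatr7b1* and 110 of 110 of *Vmn2r121*, which also had many listed sites, were heterozygous. In the mucin gene *Muc6* this was so for 23 of 24. The alternate share of the heterozygous sites of O48 ran from 8.70% over a median of 28.6% to 77.3%. In ΔDSM-O48-1 it ran from 7.69% over 20.8% to 71.0%, and in ΔDSMD-O48-2 from 9.38% over 19.5% to 80%. The ranges of the lines overlap, and the medians of heterozygous sites elsewhere in the table were 26.9%, 27.4% and 27.5%. Neighbouring sites share reads, so these medians do not rest on 142 independent values.

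*Muc4* sites had a median depth of 45 reads in O48 (6 to 63), 41 reads in ΔDSM-O48-1 (5 to 85) and 40 reads in ΔDSMD-O48-2 (4 to 67). The other sites of the table had medians of 32, 33 and 32 reads. Fewer than 10 reads were listed at 3, 5 and 3 sites, and 1 site in each line had no genotype. The depth was not even along the exon. From 32753764 to 32753955 (23 sites) the lines had medians of 46, 72 and 39 reads in the order O48, ΔDSM-O48-1 and ΔDSMD-O48-2. From 32753968 to 32754071 (15 sites) they had 32, 17 and 39 reads. ΔDSM-O48-1 thus had the highest median before this point, with 65 to 85 reads, and the lowest after it, with 15 to 20. These depths under 10 reads in at least 1 line were at 32752869, 32752870 and 32754071 and from 32755130 to 32755167.

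**Figure D2:**
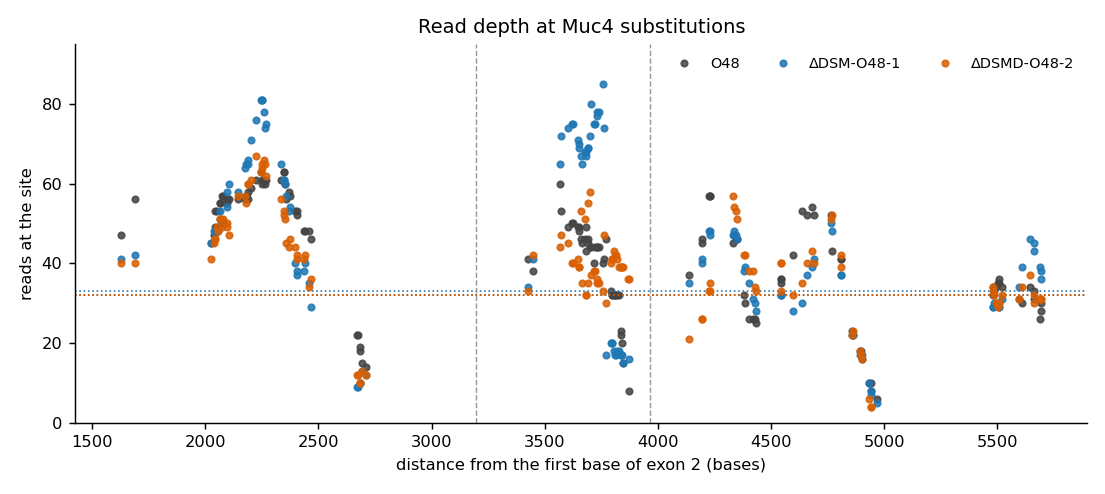
Reads at each *Muc4* site (y axis) in the 3 lines against the distance in bases from the first base of exon 2, each point 1 site in 1 library. Dotted lines are the medians of the other sites of the table (32, 33 and 32 reads, the lines of O48 and ΔDSMD-O48-2 overlap), and dashed lines the bases left out by RefSeq. ΔDSM-O48-1 reaches 85 reads and then falls below 21 reads a few bases later.

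Ranked by the depth of their shallowest line, the deepest sites were A32752441G, C32752420A, C32752449T, T32752456C and G32752466A, which all lines carried. T32752456C (I778T) had the alternate base in 34 of 61 reads of O48 (55.7%, 95% interval 42.4% to 68.5%, exact Clopper-Pearson), 42 of 78 of ΔDSM-O48-1 (53.8%) and 39 of 66 of ΔDSMD-O48-2 (59.1%). A32752441G (D773G) had it in 20 of 63 (31.7%), 16 of 81 (19.8%) and 21 of 63 reads (33.3%). C32752420A (S766Y) had shares of 31.1%, 19.7% and 34.3%, C32752449T (H776Y) 21.3%, 32.1% and 24.6%, and the synonymous G32752466A 32.8%, 22.7% and 33.9%. T32752456C was thus higher than the other 4 in every line, and at none of the 5 did a difference between lines pass the threshold after adjustment. Intervals cover counting error only, since reads without molecular identifiers are not independent molecules.

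The highest heterozygous shares of O48 were at G32752869A and T32752870C. They lie in the same codon and give V916I and V916A, each substitution taken alone. Whether the same reads carried both was not tested. Each was in 17 of 22 reads of O48 (77.3%), 6 of 9 of ΔDSM-O48-1 (66.7%) and 7 of 12 of ΔDSMD-O48-2 (58.3%). A32753917C followed with 33 of 44 (75%), 49 of 75 (65.3%) and 29 of 38 reads (76.3%), then T32753863G with shares of 71.1%, 69.2% and 65.7%. A32753886T was at 67.4%, 71.0% and 68.6%. The base after it, at G32753887T, was among the 5 lowest, with 4 of 45 reads in O48 (8.89%) and 8 of 69 in ΔDSM-O48-1 (11.6%). In ΔDSMD-O48-2 it was listed with 0 of 55 reads, beside 35 reads at A32753886T, and with a genotype quality of 0. The other low shares of O48 were at C32753859G (8.70%), T32752261A and G32752262T (9.09% each) and C32753895T (9.09%). Most neighbours were alike, as those within 10 bases differed by medians of 5.66, 3.35 and 2.27 percentage points in the lines, in the order O48, ΔDSM-O48-1 and ΔDSMD-O48-2, and by at most 62.4, 59.4 and 73.0. The 73.0 points rest on C32753895T, which was listed in ΔDSMD-O48-2 with 0 of 58 reads at a genotype quality of 0. An alternate share above 50% beside reference reads was found at 15, 9 and 13 carried sites of the lines.

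Of the 142 positions, 9 were homozygous, and these were homozygous in all 3 lines. One is T32754333A, with the alternate base in all 37 reads of O48, all 35 of ΔDSM-O48-1 and all 21 of ΔDSMD-O48-2. The others were C32755676G, T32755677A, T32755684A, C32755690A, T32755699A, C32755703G, G32755705A and G32755717C, which lie within 42 bases. Each had 32 to 36 reads in O48, 29 to 31 in ΔDSM-O48-1 and 29 to 34 in ΔDSMD-O48-2, all with the alternate base. For G32755717C the lower limits of the share were 89.7%, 88.8% and 89.1%. A reference window found more than once was counted at 0 of the 9 and at 70 of the 133 other sites. The alternate base was the middle base of another copy at 5 of the 9 and 82 of the 133. Windows with the alternate base were found for 2 of the 9 and 25 of the 133. The windows of the 8 clustered sites overlap, so the 9 are not independent. The 42 bases with their 8 alternate bases differed at 4 bases from the most similar other stretch of exon 2, and the reference version at 2. In the RefSeq frame the 8 sites of the cluster give A1850G, S1853T, H1855N, S1858T, T1859R, A1860T and E1864Q and 1 synonymous change, each substitution taken alone, and T32754333A is synonymous at A1402.

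The protein changes in the table were made with exon 2 read without a break. This reading gave 142 of 142 listed amino-acid changes. It has 88 stop codons before the last codon, the first at codon 1131. The RefSeq coding sequence, which leaves out the bases at 32753395 and 32753396 and at 32754163 and 32754164, has 0 and codes for 3470 residues. The 48 sites before the first pair had the same amino-acid change in both readings. At the 94 later sites, 41 between the pairs and 53 after the second, the listed change and that in the RefSeq frame differed, and 41 of the 94 changed class. As listed, 105 sites (73.9%) were nonsynonymous, 27 synonymous, 5 stop-gain and 5 stop-loss. In the RefSeq frame, 106 (74.6%) were nonsynonymous, 36 synonymous and 0 stop-gain or stop-loss. Of the other coding substitutions of the table, 57.2% were listed as nonsynonymous and 2.93% as a stop change.

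**Figure D3:**
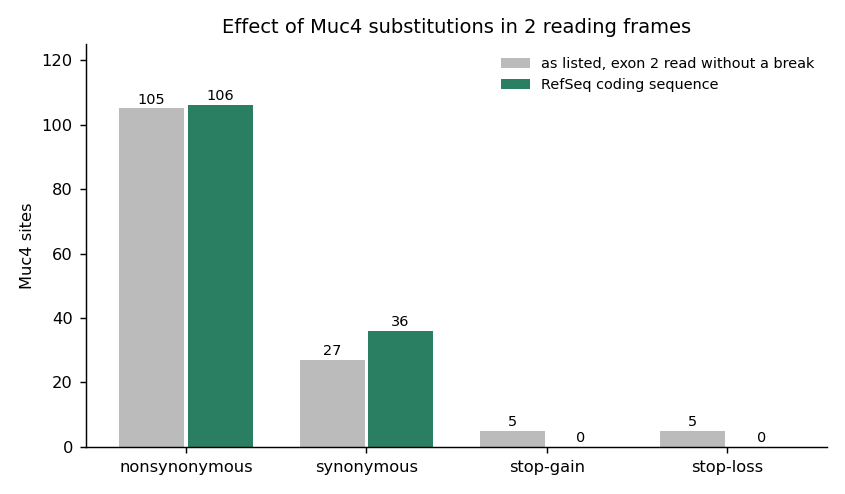
Number of *Muc4* sites (y axis) by effect on the protein, as listed with exon 2 read without a break (grey) and computed in the RefSeq coding sequence (green), with the count above each bar. The 5 stop-gain and 5 stop-loss changes of the table are absent in the RefSeq coding sequence.

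All 10 listed stop changes lie behind the first pair of bases. T32754032A, listed as Y1303*, is S1303T in the RefSeq frame, and A32754741T, listed as K1540*, is synonymous at P1538. C32754885T (R1588*) is synonymous at G1586, C32754967G (S1615*) is Q1614E and G32755137T (E1672*) is K1670N. Of the listed stop-losses, T32754546C (*1475Q) is synonymous at S1473 and T32754858A (*1579K) at T1577. A32755130G (*1669W) is E1668G, G32755717C (*1865S) is E1864Q and A32755886G (*1921W) is E1920G. Thus 6 of the 10 were nonsynonymous and 4 synonymous. The alternate base of T32754546C was in 19 of 46 O48 reads (41.3%), 18 of 46 reads of ΔDSM-O48-1 (39.1%) and 11 of 51 of ΔDSMD-O48-2 (21.6%), and A32755886G had 11.5%, 12.8% and 0 of 31 reads, the last with a genotype quality of 0. G32755137T and A32755130G had at most 10 reads in any line.

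In the RefSeq frame, the sites lie between residues 568 and 1922, a stretch with 48.7% serine or threonine against 38.1% over the whole protein. They were spread over the codon positions, with 48, 46 and 48 sites at codon positions 1, 2 and 3. Of the 106 nonsynonymous changes, 23 replaced serine or threonine by another residue, 18 gave serine or threonine in place of another, and 12 exchanged serine and threonine. Transitions made up 55 of the 142 substitutions (38.7%) against 57.2% elsewhere, a difference given without a test, as sites that share reads and repeat copies are not independent.

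Of 134 sites with at least 10 reads in all lines, 82 (61.2%) were carried by all 3 lines, against 70.8% of the other sites of the table. ΔDSM-O48-1 and ΔDSMD-O48-2 together, without O48, carried 15 (11.2%, against 4.78% elsewhere). ΔDSM-O48-1 alone carried 11 (8.21% against 5.22%), ΔDSMD-O48-2 alone 8 (5.97% against 5.67%) and O48 alone 3 (2.24% against 5.32%). O48 with ΔDSM-O48-1 carried 7 (5.22% against 3.92%), and O48 with ΔDSMD-O48-2, but not the line between them in descent, 8 (5.97% against 4.24%). Of the 34 sites with the reference genotype in O48 that an edited line carried, 7 had alternate reads in O48. Sites close together share reads, so these shares are not those of independent sites.

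Many of these reference genotypes had a genotype quality of 0, meaning that the authors' caller gave them no confidence. At 10 reads or more this was so for 16 of 34 reference genotypes of O48, 6 of 21 of ΔDSM-O48-1 and 12 of 21 of ΔDSMD-O48-2 (47.1%, 28.6% and 57.1%, against 56.5%, 53.5% and 49.5% elsewhere), and for 0 of the carried genotypes. Over the lines, 0 of 34 reference genotypes of quality 0 listed an alternate read, against 16 of 42 of higher quality. At the other sites of the table this was 0.625% of 2722 against 33.2% of 2390. A count of 0 alternate reads at a genotype of quality 0 is thus given as listed, without a limit, and whether alternate reads were counted there in the same way was not tested. The depths differed too. Elsewhere in the table, 79 of 114, 87 of 123 and 89 of 113 such genotypes were deeper than the nearest carried site within 20 bases. At higher quality this was so for 88 of 196, 89 of 200 and 85 of 173, in the same order of lines. With a quality above 0 in all lines, 109 sites were left. All 3 lines carried 82 of them (75.2%, against 85.7% elsewhere), both edited lines 11 (10.1% against 2.97%), ΔDSM-O48-1 alone 2, ΔDSMD-O48-2 alone 2 and O48 alone 2 (1.83% each, against 1.91%, 1.74% and 2.23%). O48 with ΔDSM-O48-1 carried 3 (2.75% against 2.80%) and O48 with ΔDSMD-O48-2 7 (6.42% against 2.68%). Most of the 11 sites of both edited lines lie between 32753968 and 32754071, where ΔDSM-O48-1 had 15 to 20 reads. Sites so close together share reads, so the 11 are not independent.

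**Figure D4:**
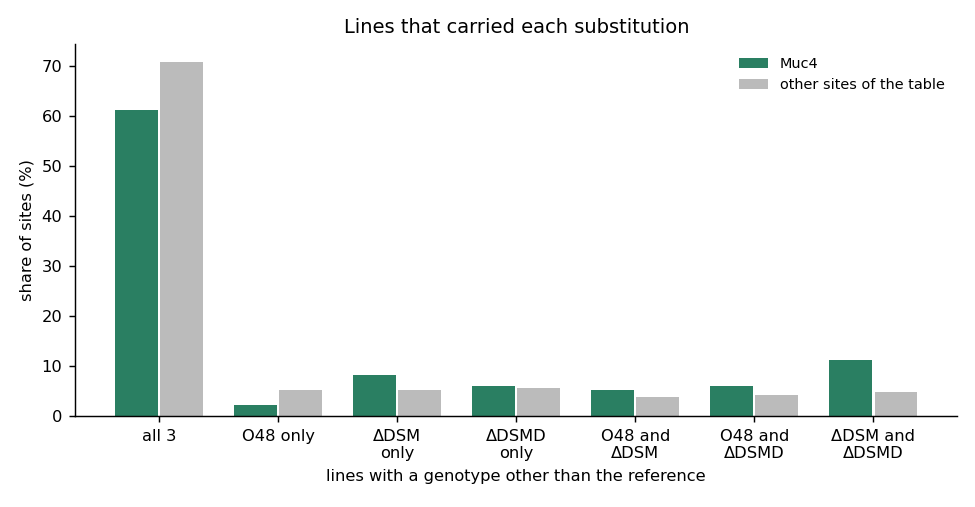
Share of sites (%, y axis) by the lines with a genotype other than the reference (x axis), for 134 *Muc4* sites (green) and the other sites of the table (grey) with at least 10 reads in all 3 lines. Of the *Muc4* sites, 61.2% were carried by all lines and 11.2% by both edited lines only, with genotypes of quality 0 included.

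The reads of each pair of lines were compared at each site with a two-sided Fisher's exact test, with Benjamini-Hochberg adjustment over all tested sites of the table. These tests compare libraries and not genotypes. A site with alternate reads in a single line is listed through that line, so the tested reads also selected its difference. For ΔDSM-O48-1 against O48, 7 of 135 *Muc4* sites (5.19%) had an adjusted p under the threshold of 0.05, beside 4.06% of the 10874 sites tested. For ΔDSMD-O48-2 against ΔDSM-O48-1, 4 of 135 (2.96%) passed beside 4.37%, and for ΔDSMD-O48-2 against O48, 4 of 136 (2.94%) passed beside 5.14%. The shares of *Muc4* sites called were thus near those of the table. An unadjusted p under 0.05 was found at 22.2%, 17.8% and 19.9% of *Muc4* sites and at 14.0%, 14.3% and 14.5% of all sites, in the same order of comparisons. Neighbouring *Muc4* sites share reads, so these shares do not count separate tests. The comparisons share libraries, and 9 sites passed in at least 1 of them.

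Every one of these calls had a genotype of quality 0 in at least 1 of the lines compared, 7 of 7, 4 of 4 and 4 of 4, against 59.6%, 52.1% and 55.8% of the calls over all sites. With genotypes of quality 0 left out over the whole table, an alternative added after seeing the data, 0 of 116, 0 of 119 and 0 of 112 *Muc4* sites passed (Fisher's exact test with Benjamini-Hochberg adjustment), beside 1.2%, 1.89% and 2.38% of all sites. This setting takes out every *Muc4* site called before, so only a site newly passing could have changed the 0. An unadjusted p under 0.05 was then found at 18, 11 and 16 *Muc4* sites (15.5%, 9.24% and 14.3%) and at 7.99%, 8.07% and 8.29% of all sites. Some of these *Muc4* sites are close neighbours that share reads, so they are not separate tests. The differences at the 9 sites therefore rest on listed counts of 0 whose genotypes had no confidence.

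C32753955A had the largest difference of the tested *Muc4* sites. The alternate base was in 22 of 40 reads of O48 (55.0%, 38.5% to 70.7%), in 19 of 33 of ΔDSMD-O48-2 (57.6%, 39.2% to 74.5%) and listed in 0 of 85 of ΔDSM-O48-1, at a genotype quality of 0. The intervals of O48 and ΔDSMD-O48-2 overlap, and ΔDSM-O48-1 had adjusted p = 1.82e-11 against O48 and 1.08e-10 against ΔDSMD-O48-2 (Fisher's exact test). The site is listed as Q1278K and is T1277K in the RefSeq frame. Its depth in ΔDSM-O48-1 was the highest of all sites and lines. A few bases away, T32753968G had the alternate base in 0 of 46 reads of O48 (genotype quality 0), 7 of 17 of ΔDSM-O48-1 (41.2%, 18.4% to 67.1%) and 2 of 30 of ΔDSMD-O48-2. The adjusted p of ΔDSM-O48-1 was 0.00232 against O48 and 0.107 against ΔDSMD-O48-2, which did not pass (Fisher's exact test). In the RefSeq frame this change is synonymous at G1281. It lies where the depth of ΔDSM-O48-1 fell from 74 to 17 reads, and the part of this fall in the result was not tested.

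The stretch of ΔDSM-O48-1 printed above holds T32754858A, C32754880T and C32754885T. T32754858A was in 11 of 37 reads of ΔDSM-O48-1 (29.7%), C32754880T in 15 of 39 (38.5%) and C32754885T in 17 of 41 (41.5%, 26.3% to 57.9%). O48 had 0 of 52, 54 and 52 reads and ΔDSMD-O48-2 0 of 40, 43 and 40, so alternate reads were listed in ΔDSM-O48-1 only, although ΔDSMD-O48-2 was derived from it. The genotypes of O48 and ΔDSMD-O48-2 had a quality of 0 at all 3 sites, so the files do not show that these lines lack the alternate bases. The adjusted p for ΔDSM-O48-1 against O48 was 0.00162, 3.65e-05 and 1.07e-05, and against ΔDSMD-O48-2 it was 0.00625, 0.00023 and 0.000178 (Fisher's exact test). All 3 sites are listed through the reads of ΔDSM-O48-1, the line tested as higher, so these p-values are no separate support for a difference. In the RefSeq frame, C32754880T is P1585S and the other two are synonymous.

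The sequence around C32754885T with the alternate base was found again in exon 2. The window of 29 bases around it occurs 7 times in the reference with T in the middle, and 1 of these copies is the stretch around T32753968G.
chr16:32754871-32754899, reference: acaatctctcctggCgagacaaccacctc
chr16:32754871-32754899, alternate: acaatctctcctggTgagacaaccacctc
chr16:32753954-32753982, reference: acaatctctcctggTgagacaaccacctc
The alternate version of the first stretch and the reference of the second are the same letters. The 30 bases from 32754857 to 32754886 with all 3 alternate bases differed at 1 base from the most similar other stretch, at 32755985 to 32756014, and the reference version differed at 2 from its own.

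T32754963C and C32754967G were carried by both edited lines, and O48 had a genotype quality of 0 at both. T32754963C had the alternate base in 0 of 52 reads of O48, 10 of 50 of ΔDSM-O48-1 (20%, 10% to 33.7%) and 11 of 51 of ΔDSMD-O48-2 (21.6%, 11.3% to 35.3%). C32754967G had 0 of 43, 10 of 48 (20.8%) and 12 of 52 reads (23.1%). Adjusted p-values against O48 were 0.0191 and 0.0383 for ΔDSM-O48-1 and 0.00839 and 0.0126 for ΔDSMD-O48-2 (Fisher's exact test). Both sites are listed through the reads of the edited lines, so these p-values are no separate support for a difference from O48. The intervals of the edited lines overlap at both sites. The 30-base stretch with both alternate bases, printed above, was found exactly at 32756079 to 32756108, and the reference version has an exact copy elsewhere in exon 2 as well.

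ΔDSMD-O48-2 alone had alternate reads at A32751885C (T588P, 7 of 40 reads, 17.5%) and C32752249A (T709N, 8 of 49, 16.3%), with 0 of 56 and 0 of 53 reads in O48 and 0 of 42 and 0 of 48 in ΔDSM-O48-1. The genotype quality was 0 in O48 at both sites and in ΔDSM-O48-1 at A32751885C. At C32752249A the count of 0 in ΔDSM-O48-1 allows a share of up to 6.25%. Against O48 the adjusted p was 0.0342 and 0.042, and against ΔDSM-O48-1 it was 0.0863 and 0.0959 (Fisher's exact test). Both sites are listed through the reads of ΔDSMD-O48-2 only, which were also the reads tested. T32751825C (S568P), the first site, had 0 of 47 and 0 of 41 reads (genotype quality 0 in both), then 7 of 40 in ΔDSMD-O48-2, and did not pass (adjusted p = 0.0588 against O48, Fisher's exact test). With Holm adjustment in place of Benjamini-Hochberg, C32753955A, C32754880T and C32754885T passed, and the other 6 sites did not pass in any comparison.

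**Figure D5:**
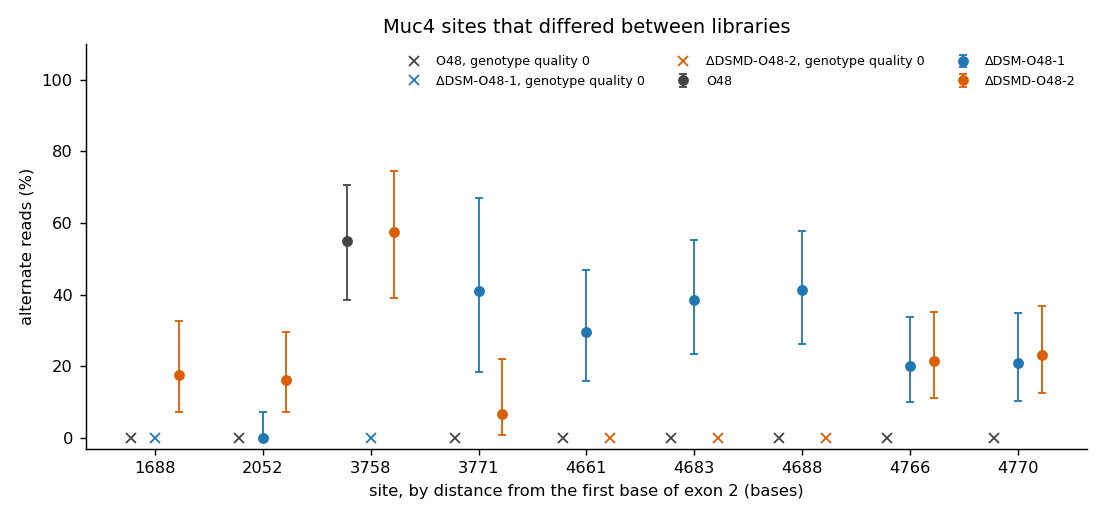
Share of alternate reads (%, y axis) in O48, ΔDSM-O48-1 and ΔDSMD-O48-2 at the 9 sites past the threshold in at least 1 comparison, ordered by their distance in bases from the first base of exon 2 (x axis), with exact 95% Clopper-Pearson intervals as error bars. Crosses are genotypes of quality 0, drawn without an interval, and each site has at least 1. C32753955A is the site at 3758, where ΔDSM-O48-1 is at 0, and the ΔDSM-O48-1 stretch is at 4661, 4683 and 4688.

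Other sites with alternate reads mainly in the edited lines did not pass the threshold, and in contrast to the 9 sites the next 6 had genotype qualities above 0 in all lines. C32753990T, T32753994G and A32753996T had 0 of 33, 32 and 32 reads in O48 (which allows shares of up to 9.09%, 9.38% and 9.38%), 5 of 20 in ΔDSM-O48-1 at each (25%), and 8 of 40, 41 and 41 in ΔDSMD-O48-2, with adjusted p of 0.0931 or more. A32755792T and C32755805T had 1 of 31 and 1 of 30 reads in O48, 9 of 34 (26.5%) and 10 of 39 (25.6%) in ΔDSM-O48-1 and 8 of 31 and 8 of 34 in ΔDSMD-O48-2. The adjusted p for ΔDSM-O48-1 against O48 was 0.163 and 0.189 (Fisher's exact test). The last site, T32755892A, had 0 of 30 reads in O48 (up to 10%), 4 of 36 in ΔDSM-O48-1 and 0 of 31 in ΔDSMD-O48-2 (up to 9.68%).

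A further 3 positions of *Muc4* had 2 alternate bases and are outside the chosen sites. At 32752359 the reads of O48 had T in 28, C in 21 and A in 8 of 57 reads, and those of ΔDSM-O48-1 in 41, 8 and 12 of 61. ΔDSMD-O48-2 had 36, 12 and 8 of 56. At 32752369, G was in 17 and A in 8 of 56 reads of O48, in 8 and 12 of 62 reads of ΔDSM-O48-1, and in 12 and 10 of 56 reads of ΔDSMD-O48-2, so the order of both bases was the other way in ΔDSM-O48-1. At 32753919, G32753919C was in 29 of 44, 49 of 78 and 29 of 36 reads of the lines and G32753919A in 6 of 44, 9 of 78 and 6 of 36, so that 3 different bases were read at 1 position in each haploid line.

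Among 20 other genes of mucins and mucin-like proteins, 5 had a listed site. *Muc6*, a secreted gel-forming mucin of the stomach, had 25 sites with median shares of 23.2%, 23.9% and 21.7% at its carried sites in O48, ΔDSM-O48-1 and ΔDSMD-O48-2, and median depths of 103, 99 and 90 reads. *Muc5b*, a gel-forming mucin of the airways, had 4 sites at 53.8%, 45.1% and 52.0%. *Mucl1* had 3, *Prg4* (lubricin of joints) 2 and *Muc19* 1. Of the receptor genes *Egfr*, *Erbb2*, *Erbb3* and *Erbb4*, 0 of 4 had a listed site. By number of sites *Muc4* was between *Heatr7b1* (189 sites, median shares of 21.1%, 20.9% and 20.9%) and *Vmn2r121* (119 sites, 22.2%, 22.4% and 26.8%).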

How the data were processed

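Whole-genome libraries of 3 lines were analyzed, through the authors' list of exonic substitutions. Per the submitters' processing notes, CASAVA 1.8.2, BWA 0.7.12, SAMtools, Picard and GATK were used, with the build mm10. The deposited counts are the authors' whole numbers of all, reference and alternate reads per site and line, and the deposited genotype quality and site quality scores come from their caller. The authors' allele fraction, which counts genotypes, was not used. Shares of alternate reads were computed from reference plus alternate reads, with the minimum of 10 reads where stated. The totals at *Muc4* sites were 5850, 6239 and 5568 reads for O48, ΔDSM-O48-1 and ΔDSMD-O48-2, of 818476, 832148 and 815791 over the table. A count of 0 is given with the limit of 3 counts, or as listed, with no limit, where the genotype quality is 0. Fisher's exact tests were run at every site of the table. They were repeated without genotypes of quality 0. Effects were recomputed from the RefSeq gene model, and 31-base windows were searched in the whole assembly. Indels were not analysed here. Sites were named by a rule (past the threshold, stop changes, homozygous, deepest, highest and lowest shares of O48, line-specific, first and last). The highest shares were taken after the homozygous sites. The sites and gene lists were chosen with earlier results of these data known. The tests were tested on simulated data, where known changes were recovered less often at sites with few reads. A first pass criterion over all changed sites was not met, and it was then set on the deeper sites alone, with the test itself unchanged. Python 3.11.15, pandas 2.3.3, scipy 1.17.1, numba 0.67.0, biopython 1.88 and matplotlib 3.10.9 were used.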

Additional observations from a re-analysis of the deposited data

How the results depend on the processing

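Of 56 values recomputed with other settings for 12 results, 41 stayed within 1.5 times the count or within the interval of the share. For the median shares this was the wide interval of a single site at the median depth, not that of a median over sites. The median of O48 thus counted as within it at 22.2% with all listed sites, against 29.9% in the main setting. With genotypes of quality 0 left out, chosen after seeing the data, 0 *Muc4* sites were called in each comparison (Fisher's exact test), where 18, 11 and 16 had an unadjusted p under 0.05, and 15 in place of 34 sites had the reference genotype in O48 and were carried by an edited line. Every *Muc4* site called in the main setting is taken out by this choice. No depth minimum and the listed depth as total left the number of sites called in each comparison as it was. With at least 20 reads, 6 sites differed between ΔDSM-O48-1 and O48, without T32753968G. Between ΔDSMD-O48-2 and ΔDSM-O48-1, 7 in place of 4 differed, with C32753895T, A32754741T and A32754742C in addition. At all of these added sites the genotype of ΔDSMD-O48-2 had a quality of 0, as in the other calls. With Holm adjustment, 3 sites remained for ΔDSM-O48-1 against O48 and 3 for ΔDSMD-O48-2 against ΔDSM-O48-1 (C32753955A, C32754880T and C32754885T in both), and 0 for ΔDSMD-O48-2 against O48, where 27 (19.9%, beside 14.5% of all sites) had an unadjusted p under 0.05. Without sites that have another *Muc4* site within 10 bp, 1 site was called in each comparison, by construction from fewer sites. When a site was counted from a share of 0.2 upwards and not by genotype, ΔDSM-O48-1 had 65 sites, ΔDSMD-O48-2 61 and O48 74, which turns the order of the lines round. The count of alternate bases found in another repeat copy was 27 with 15 bases on each side, 8 with 25 bases, 51 with 1 further mismatch allowed (12 of 284 for the other bases) and 87 with 80% identical flanks, a setting chosen after seeing the data. Sites with under 20 reads in a line limit what could be called. No paired analysis was possible because there was 1 library per line.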
